A study of Mus musculus with 23 samples.

Results

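The antigen presentation genes of the mouse liver, taken as 32 members by gene symbol from a deposited table of 65535 genes, were compared between a line without functional CYP2E1 and a wild-type line. The members were 10 class I heavy chains, 7 genes of the class I light chain and of peptide loading, 6 of the immunoproteasome and of peptide trimming, 7 of class II molecules and their processing, and 2 transactivators. The libraries came from polyA RNA of bulk liver tissue, read by counting the 3′ ends of transcripts. There were 6 Female KO, 5 Female WT, 6 Male KO and 6 Male WT libraries. KO mice were of the line 129/Sv-Cyp2e1tm1Gonz/J and WT mice of 129S1/SvImJ, and all were housed together on normal chow with no treatment named. The labels give an age of 12 to 13 weeks in one place and of 16 weeks in another, for every mouse. Each genotype is a separate line, so the disrupted gene and any other difference between the lines cannot be told apart. The MHC differs in sequence between many mouse strains, and whether these lines differ there is not given in the sources used here.

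Class I molecules show peptides from inside the cell to CD8 T cells and natural killer cells, and hepatocytes carry them as most nucleated cells do. The proteasome cuts proteins into peptides, the TAP transporter moves these into the endoplasmic reticulum, and a loading complex fits them onto a heavy chain paired with beta-2 microglobulin. Class II molecules show peptides from taken-up material to CD4 T cells, and in the healthy liver they are known from Kupffer cells, dendritic cells, B cells and sinusoidal endothelium rather than from hepatocytes. NLRC5 and CIITA are the transactivators of the class I and class II genes, and interferon gamma raises most genes of both routes.

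Library totals lay between 1538889 and 9874733 counts with a median of 4658677, and levels below are the deposited CPM, library counts scaled to a common total. Cyp2e1, the disrupted gene, had 18.1 to 37.7 CPM in Female KO and 323 to 455 CPM in Female WT, and 21.7 to 49.4 CPM in Male KO and 387 to 543 CPM in Male WT. Summed hepatocyte markers summed to between 79348 and 110803 CPM in every library. Male KO replicate 3 was the shallowest library. Female KO replicate 1 and Male KO replicate 6 stood apart in class II genes and in macrophage markers. Many results that rest on these libraries are given with and without them, but not every value that moved. In bulk tissue, fewer cells of a type and less RNA per cell cannot be told apart.

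Of the 32 members, 27 passed the filter on low counts and were tested with all 11370 genes that passed. H2-Q4, H2-Q6, H2-T24, H2-M3 and Tap2, the partner of Tap1 in the peptide transporter, did not pass. Their summed counts over 23 libraries were 104, 161, 56.3, 62.1 and 159.5. Tap2 lay between 1.38 and 2.45 CPM in Female KO and between 0.531 and 1.96 CPM in Female WT, and between 0.971 and 1.67 CPM in Male KO and between 0.210 and 2.90 CPM in Male WT. The groups overlapped in both sexes. On the chromosomes, 20 members lie on chromosome 17, which holds the mouse MHC.

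Most members had a positive log2 fold change of KO over WT, as fitted by edgeR, in both sexes, by small amounts, and few passed the test. A gene is called here when the adjusted p of edgeR's quasi-likelihood test, corrected over all 11370 genes, is under 0.05. Averaged over the sexes, H2-D1 and Psmb9 were called, both higher in KO, which is 7.41% of the tested members beside 0.431% of all genes called in either direction and 0.193% called higher. The median log2 fold change, KO over WT, was 0.32 over the 27 tested members and 0.03 over all tested genes. The fold change was positive for 26 of 27 members, beside 55% of all genes. An unadjusted p under 0.05 was reached by 15 members, all higher, beside 8.87% of all genes that were higher at that p.

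Within each sex the test called no member. In females 0 of 27 members were called, by edgeR, DESeq2 and limma-voom alike, beside 0.193% of all genes in edgeR, and 6 members had an unadjusted p under 0.05, all higher, beside 4.55% of all genes that were higher at that p. In males 0 were called by edgeR and by limma-voom, and 1 by DESeq2, beside 0.132% of all genes in edgeR, and 12 members had an unadjusted p under 0.05, all higher, beside 7.92% of all genes. Limma-voom with sample weights, which gives less weight to libraries that stand apart, called 8 members in males and 0 in females, beside 6.02% and 0.431% of all genes by that method. The median log2 fold change of the members was 0.24 in females and 0.35 in males, against 0.01 and 0.04 over all genes. The fold change was positive for 25 of 27 members in females, beside 51.7% of all genes, and for 23 of 27 in males, beside 55.9%. In females 3 members, H2-D1, Pdia3 and Psmb9, had every KO library above every WT library, beside 0.457% of all genes, and in males 0 members did, beside 0.22%. The contrast averaged over the sexes uses the same libraries as these 2 and is no separate evidence. The counts describe these samples and are no test of the list.

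**Figure D1:**
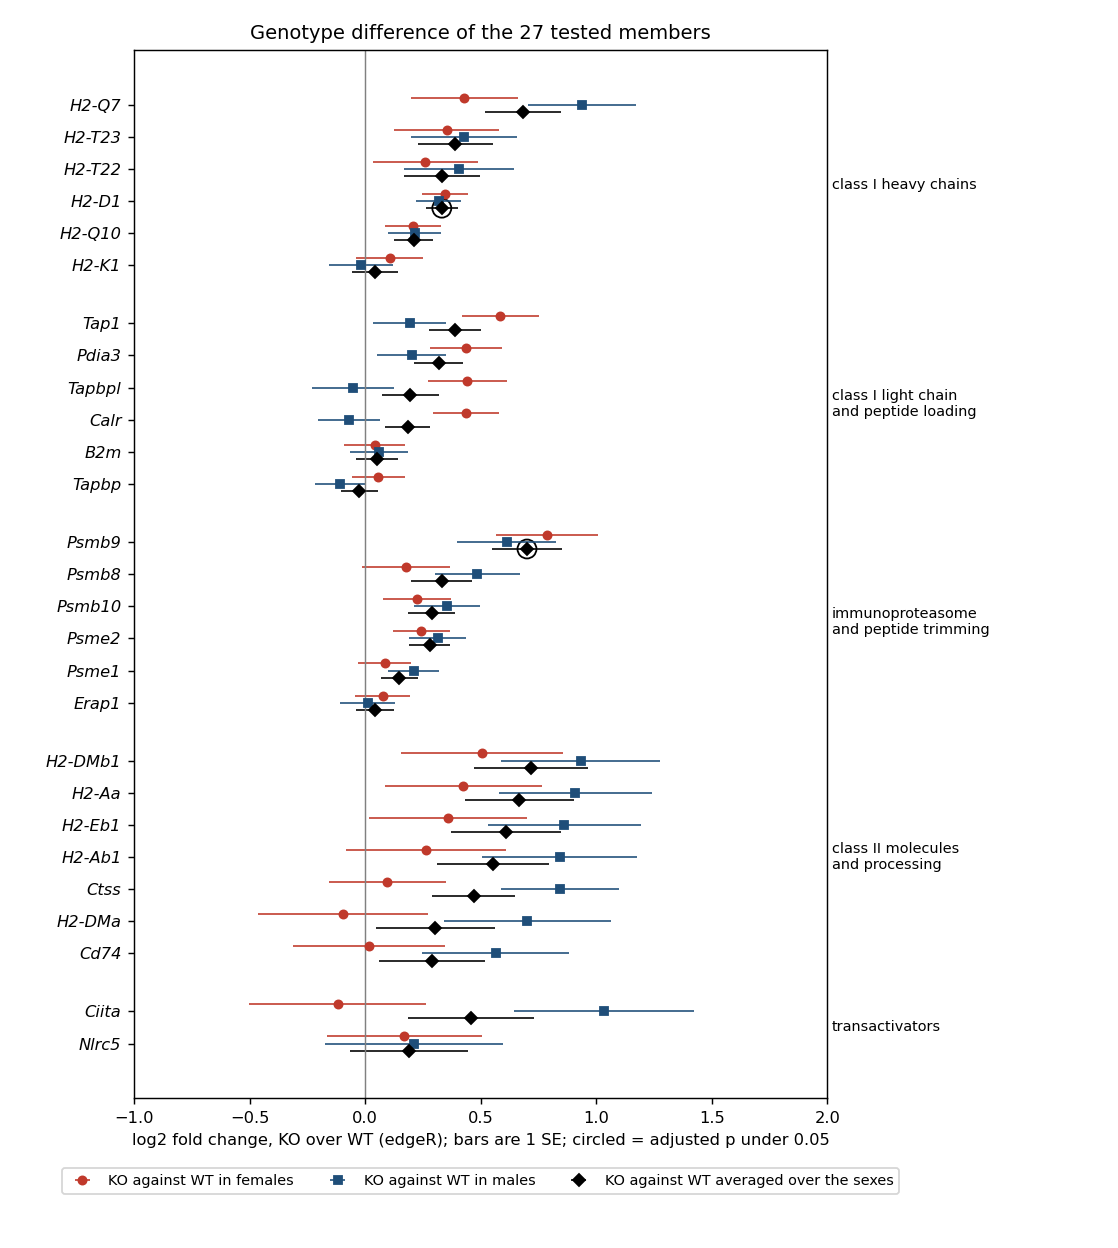
Log2 fold change of KO over WT for the 27 tested members (rows, in role order), in females (circles), in males (squares) and averaged over the sexes (diamonds), with bars of 1 SE. H2-D1 at 0.33 and Psmb9 at 0.70 are the circled calls, and the class II members and both transactivators have the widest bars.

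Among the class I heavy chains, H2-D1 was the called member. H2-D1 encodes a classical heavy chain of the D locus. It had a lowest, median and highest level of 77.0, 84.6 and 97.0 CPM in Female KO, against 67.3, 73.8, 76.5, 68.3 and 59.9 CPM in the 5 Female WT libraries. Every Female KO library lay above every Female WT library. In males the lowest, median and highest levels were 55.5, 65.1 and 76.2 CPM in Male KO and 49.2, 55.0 and 62.4 CPM in Male WT, and these groups overlapped. The log2 fold change averaged over the sexes was 0.33 with an SE of 0.07 and an adjusted p of 0.0242, a ratio of 1.26. It was 0.34 ± 0.10 (SE) in females with an adjusted p of 0.228, and 0.32 ± 0.10 (SE) in males with an adjusted p of 0.199. Leaving out Female WT replicate 1 or 4, Male KO replicate 6, or Male WT replicate 1, 3 or 6 put the averaged adjusted p between 0.0509 and 0.0578, so the call was lost without each of these 6 libraries and held without each of the other 17. With no filter on low counts the adjusted p was 0.221. The fold change lay between 0.30 and 0.36 over the 23 fits that each left out 1 library. About 9.53% of the 50-base windows in the last 500 bases of its reference transcript also occur in another gene, and 11 of its 23 counts were not whole.

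H2-K1, the classical heavy chain of the K locus, had the smallest difference among the heavy chains. Its lowest, median and highest levels were 954, 1092 and 1183 CPM in Female KO, against 960, 1163, 1190, 1123 and 778 CPM in the Female WT libraries. In males they were 417, 885 and 1007 CPM in Male KO, against 823, 878 and 978 CPM in Male WT. Both pairs of groups overlapped, and the lowest Male KO value came from replicate 3. The log2 fold change averaged over the sexes was 0.04 ± 0.10 (SE) with an adjusted p of 0.857 and a 95% interval, taken from the SE, of -0.15 to 0.24. Without Male KO replicate 3 it was 0.10. The same interval for H2-D1 was 0.20 to 0.47, and the difference between the 2 genes was not tested.

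The windows around the start sites of H2-D1 and H2-K1 are shown because these are the 2 classical heavy chains described first. They are RefSeq promoters of 250 bases before and 50 after the start, on build GRCm38.p6, H2-D1 at chr17:35262844-35263143 on the plus strand and H2-K1 at chr17:34000284-34000583 on the minus strand. Capitals mark matches on either strand to TGACG, the part of the X2 box that factors of the CREB and ATF family bind, and to CCAAT, the core of the Y box that NF-Y binds (ATTGG on the other strand).
H2-D1: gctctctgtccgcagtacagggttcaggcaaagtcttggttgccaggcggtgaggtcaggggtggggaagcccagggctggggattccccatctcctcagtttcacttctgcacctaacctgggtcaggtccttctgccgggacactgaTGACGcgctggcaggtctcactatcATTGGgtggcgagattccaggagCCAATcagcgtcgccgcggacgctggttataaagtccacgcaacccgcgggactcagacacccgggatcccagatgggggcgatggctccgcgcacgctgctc
H2-K1: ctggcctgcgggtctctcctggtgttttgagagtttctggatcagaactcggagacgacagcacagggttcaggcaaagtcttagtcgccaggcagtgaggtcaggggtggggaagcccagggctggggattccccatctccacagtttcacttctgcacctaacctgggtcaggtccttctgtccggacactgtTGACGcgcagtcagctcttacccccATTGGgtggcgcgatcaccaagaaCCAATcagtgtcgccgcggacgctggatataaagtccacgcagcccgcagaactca
In both, TGACG was followed by ATTGG with 25 bases from first base to first base. This order with a spacing of 24 to 26 bases, a range set after the matches were seen, was found in 6 of the 25 members with a RefSeq window and in 0.116% of 32851 promoter windows. The others were H2-Q7, H2-M3, B2m and H2-Aa. CCAAT alone was in 72.0% of the members with a window and in 37.4% of all windows, and TGACG alone in 48.0% and in 20.8%. Here and below a member counts if any of its windows holds the letters, while all windows are counted singly. The 25 members have 28 windows. H2-K1 has another window, not shown, that holds the same pair 25 bases apart. A match to letters is a description and not a measured binding site.

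H2-Q7, a nonclassical class I gene of the Qa-2 family, had the largest difference among the heavy chains and missed the threshold in the fit reported. The lowest, median and highest levels were 6.22, 7.45 and 10.2 CPM in Female KO, against 5.44, 6.08, 6.88, 6.27 and 5.19 CPM in the Female WT libraries. Male levels were 4.95, 5.69 and 12.9 CPM in Male KO, against 3.28, 4.24 and 5.03 CPM in Male WT. The groups overlapped in both sexes, and the highest Male KO values were 12.9 CPM in replicate 6 and 10.9 CPM in replicate 4. The averaged log2 fold change was 0.68 ± 0.16 (SE) with an adjusted p of 0.0614. Over the 23 fits that each left out 1 library it lay between 0.56 and 0.76, lowest without Male KO replicate 6. In males it was 0.94 with all libraries and 0.69 without Male KO replicate 6. The averaged difference passed the threshold without Male KO replicate 1, Male KO replicate 2 or Male WT replicate 2 (adjusted p 0.0289, 0.0135 and 0.0454). It also passed with DESeq2 (adjusted p 0.0159), edgeR with no filter on low counts (0.017) and limma-voom with sample weights (0.00592). In males alone the same 3 fits called it, with adjusted p of 0.048, 0.0283 and 0.0105. The remaining fits that kept all 23 libraries and H2-Q7 as a single gene did not call it for genotype. Its counts were not whole in 21 of 23 libraries.

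The other tested heavy chains were H2-Q10, which encodes a secreted class I molecule made by the liver, and H2-T22 and H2-T23, both nonclassical, with H2-T23 encoding Qa-1. Their averaged log2 fold changes lay between 0.21 and 0.39 with adjusted p between 0.226 and 0.327. H2-Q10 averaged 1442 ± 70.1 CPM in Female KO and 1288 ± 102 CPM in Female WT, and 1457 ± 159 CPM in Male KO and 1345 ± 49.5 CPM in Male WT (SD, n = 6, 5, 6 and 6). H2-T22 shares 59.2% of its last windows with H2-T10, and H2-T23 shares 38.1% with other genes, so the counts of both are uncertain. Over the 6 tested heavy chains the median averaged log2 fold change was 0.33.

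**Figure D2:**
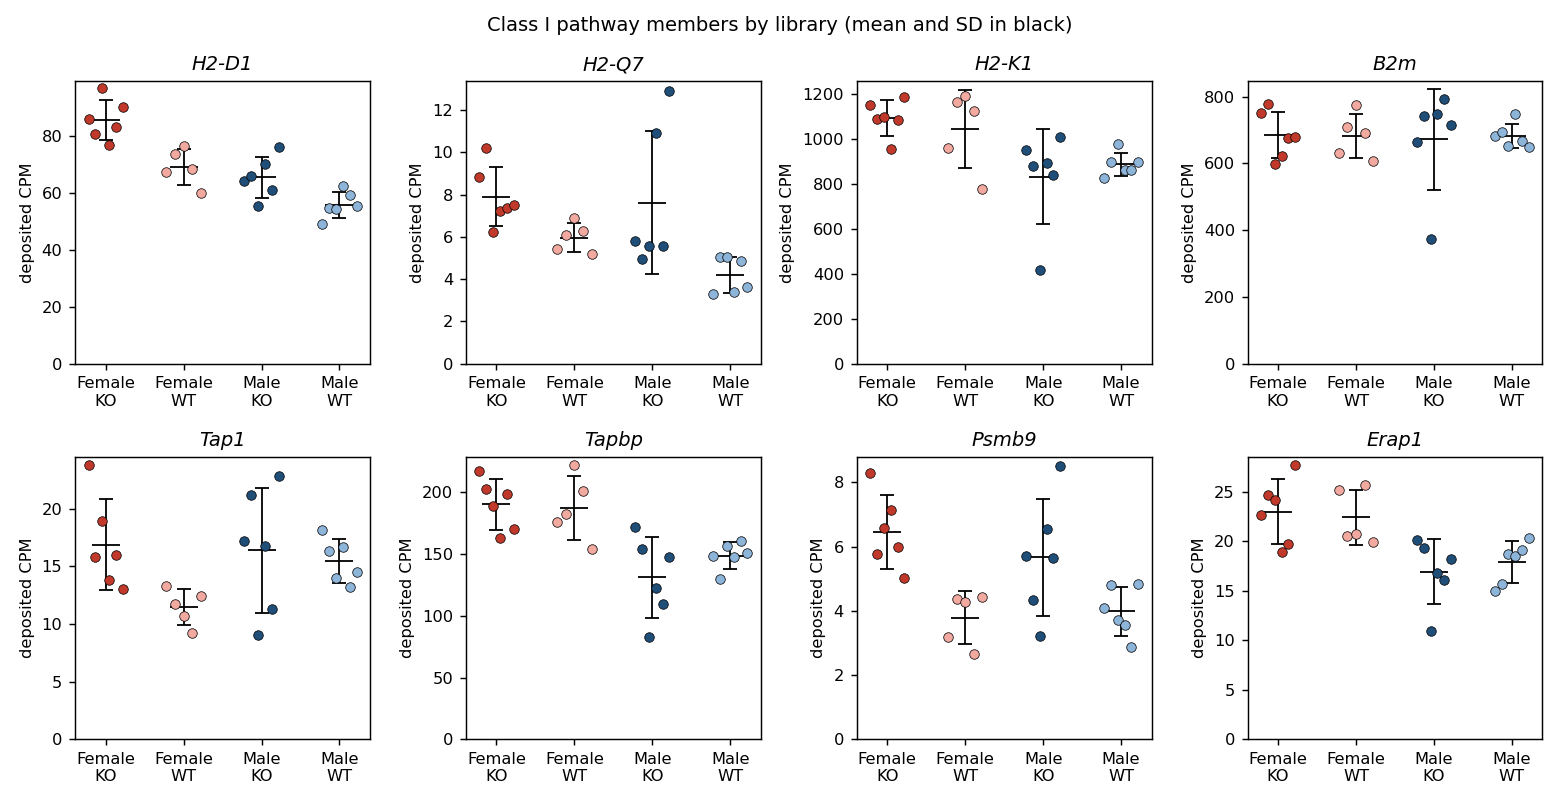
Deposited CPM of 8 members of the class I route in each library (points) by group, with mean and SD in black. H2-D1 lies between 77.0 and 97.0 CPM in Female KO, above the 59.9 to 76.5 CPM of Female WT, while the groups overlap for H2-K1 and B2m, where Male KO replicate 3 is low.

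Among the genes of the light chain and of peptide loading, no member was called for genotype. Tap1, a subunit of the peptide transporter, had the largest averaged difference. Levels (lowest, median and highest) were 13.0, 15.9 and 23.7 CPM in Female KO, against 13.3, 11.8, 10.7, 9.20 and 12.5 CPM in the Female WT libraries. For males the levels were 9.03, 17.0 and 22.8 CPM in Male KO, against 13.2, 15.4 and 18.2 CPM in Male WT. In females 5 of 6 KO libraries lay above every WT library, and in males the KO libraries reached both above and below the WT range. The log2 fold change was 0.58 ± 0.17 (SE) in females with an adjusted p of 0.223, 0.19 ± 0.16 (SE) in males with an adjusted p of 0.595, and 0.39 ± 0.11 (SE) averaged with an adjusted p of 0.109. The highest Tap1 levels in the KO groups were those of Female KO replicate 1 and Male KO replicate 6. The averaged value was 0.32 without Male KO replicate 6, and the female value was 0.48 without Female KO replicate 1.

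Tapbp, which encodes tapasin, the bridge between the transporter and the heavy chain, had the smallest averaged difference. Its lowest, median and highest levels were 163, 194 and 217 CPM in Female KO, against 176, 183, 222, 201 and 154 CPM in the Female WT libraries. In males they were 82.6, 135 and 172 CPM in Male KO, against 130, 149 and 161 CPM in Male WT. The groups overlapped in both sexes, and the averaged log2 fold change was -0.03 ± 0.08 (SE) with an adjusted p of 0.898, and 0.0082 without Male KO replicate 3. The other tested members, chosen for naming after their values were seen, were B2m, Pdia3, Calr and Tapbpl. B2m, the light chain of every class I molecule, averaged 684 ± 68.9 CPM in Female KO and 682 ± 66.5 CPM in Female WT, and 672 ± 152 CPM in Male KO and 682 ± 36.4 CPM in Male WT (SD). Its averaged log2 fold change was 0.05 ± 0.09 (SE) with an adjusted p of 0.812, and 0.099 without Male KO replicate 3. Pdia3, the ERp57 subunit of the loading complex, had 0.32 ± 0.11 (SE) with an adjusted p of 0.156. In females every KO library was above every WT library, at 189 to 275 CPM in Female KO and 134 to 177 CPM in Female WT.

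Calr, which encodes the chaperone calreticulin, averaged 614 ± 61.7 CPM in Female KO and 468 ± 126 CPM in Female WT, and 450 ± 42.4 CPM in Male KO and 501 ± 76.6 CPM in Male WT (SD). Its log2 fold change of KO over WT was 0.44 ± 0.14 (SE) in females and -0.07 ± 0.13 (SE) in males. The interaction, the male difference less the female one, was -0.51 ± 0.20 (SE) with an unadjusted p of 0.0155 and an adjusted p of 0.796. The 6 tested genes had a median log2 fold change of 0.44 in females and of 0.00 in males. Calreticulin and ERp57 also fold many other glycoproteins.

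Psmb9 was the called member of the immunoproteasome genes. It encodes a catalytic subunit that replaces its constitutive partner when the immunoproteasome forms. The lowest, median and highest levels were 5.02, 6.28 and 8.28 CPM in Female KO, against 3.19, 4.38, 4.27, 2.65 and 4.45 CPM in the Female WT libraries. All Female KO libraries were above all Female WT libraries. In males the levels were 3.23, 5.68 and 8.50 CPM in Male KO, against 2.89, 3.91 and 4.84 CPM in Male WT, with overlap in the lower values. The averaged log2 fold change was 0.70 ± 0.15 (SE) with an adjusted p of 0.0351, a ratio of 1.62. It was 0.79 ± 0.22 (SE) in females with an adjusted p of 0.201, and 0.61 ± 0.21 (SE) in males with an adjusted p of 0.273. No window of its transcript end occurred in another gene and all its counts were whole, while its counts summed to 565 over the 23 libraries.

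The call of Psmb9 held without each of 10 libraries and was lost without each of the other 13. Those were Female KO replicates 1 and 4, Female WT replicates 1, 2, 3 and 4, Male KO replicates 4, 5 and 6, and Male WT replicates 1, 3, 4 and 5. The averaged adjusted p without them lay between 0.0507 and 0.078, and the log2 fold change over all 23 such fits between 0.62 and 0.77. With both Female KO replicate 1 and Male KO replicate 6 left out, which also hold the highest Psmb9 levels, the log2 fold change was 0.59 with an adjusted p of 0.114 for Psmb9, and 0.31 with an adjusted p of 0.0618 for H2-D1. Neither member was then called.

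Psmb9 and Tap1 lie head to head, and the window around their start sites is shown because it covers sequence upstream of both genes. It runs along chr17:34187306-34187605 on the plus strand of GRCm38.p6 in the direction of Tap1. The RefSeq window of Psmb9 covers 275 of these bases on the other strand. Capitals again mark CCAAT and TGACG, and the interferon response element core, GAAA, any 2 bases and GAAA, was not in this window.
Tap1: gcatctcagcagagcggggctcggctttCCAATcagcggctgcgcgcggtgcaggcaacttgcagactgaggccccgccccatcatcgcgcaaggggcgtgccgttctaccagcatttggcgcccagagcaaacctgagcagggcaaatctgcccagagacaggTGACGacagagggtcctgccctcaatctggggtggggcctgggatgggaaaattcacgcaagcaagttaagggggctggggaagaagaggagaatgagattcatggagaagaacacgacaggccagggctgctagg
The interferon element core was found on either strand in 6 of the 25 members with a window and in 3.44% of all windows. B2m, at chr2:122147437-122147736 on the plus strand of the same build, was among them and is shown with the same motifs in capitals, the longest run being the interferon element.
B2m: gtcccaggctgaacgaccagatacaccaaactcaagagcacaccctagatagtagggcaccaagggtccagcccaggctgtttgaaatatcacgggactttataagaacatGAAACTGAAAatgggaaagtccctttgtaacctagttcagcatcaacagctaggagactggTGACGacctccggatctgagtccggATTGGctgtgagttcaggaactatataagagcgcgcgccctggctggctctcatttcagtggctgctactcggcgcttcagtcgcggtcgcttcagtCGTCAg

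Erap1, the aminopeptidase that trims peptides in the endoplasmic reticulum, had the smallest difference in this role. Levels (lowest, median and highest) were 18.9, 23.4 and 27.7 CPM in Female KO, against 25.2, 20.5, 20.7, 25.7 and 19.9 CPM in the Female WT libraries, and 11.0, 17.5 and 20.1 CPM in Male KO, against 15.0, 18.6 and 20.4 CPM in Male WT. The groups overlapped, and the averaged log2 fold change was 0.04 ± 0.08 (SE) with an adjusted p of 0.828. The catalytic subunits Psmb8 and Psmb10 and the activator subunits Psme1 and Psme2 had averaged log2 fold changes between 0.15 and 0.33 with adjusted p between 0.124 and 0.367. All 6 genes of this role had a positive fold change in females and in males, with a median of 0.28 averaged over the sexes. Without Female KO replicate 1 and Male KO replicate 6 that median was 0.23. Psme2 shares 55.2% of its last windows with Psme2b, so part of its counts may belong to that copy. The constitutive proteasome and chaperone genes, 25 of 25 tested, had a median of 0.06 and 0 called.

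Averaged over the sexes, the class II members had the largest median difference of the 5 roles with all libraries. Without Female KO replicate 1 and Male KO replicate 6 they had the smallest averaged median. No class II member was called in the fit reported. With no filter on low counts edgeR called H2-Aa and H2-Eb1 averaged over the sexes (adjusted p 0.0119 and 0.0292), and these with H2-Ab1 and Ctss in males. Their median averaged log2 fold change was 0.55, with all 7 positive, 5 of them at an unadjusted p under 0.05 and the lowest adjusted p at 0.16. In males the median was 0.84 and in females 0.26. The summed class II level was 531 CPM in Female KO replicate 1 and 91.0 to 209 CPM in the other Female KO libraries, against 164 to 219 CPM in Female WT. It was 537 CPM in Male KO replicate 6 and 133 to 204 CPM in the other Male KO libraries, against 125 to 191 CPM in Male WT. Without these 2 libraries the median log2 fold change was 0.37 in males, -0.16 in females and 0.136 averaged over the sexes, where the other roles had 0.143 to 0.35.

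H2-DMb1, a chain of the DM molecule that helps to load class II molecules, had the largest averaged difference among them. Its lowest, median and highest levels were 1.86, 4.66 and 7.63 CPM in Female KO, against 3.93, 2.99, 3.36, 1.86 and 3.91 CPM in the Female WT libraries. Male levels were 2.76, 3.91 and 10.7 CPM in Male KO, against 1.89, 2.59 and 3.61 CPM in Male WT. The groups overlapped in both sexes, and the highest KO values were those of Female KO replicate 1 and Male KO replicate 6. The averaged log2 fold change was 0.72 ± 0.25 (SE) with an adjusted p of 0.16, and 0.40 without these 2 libraries. Of its last windows, 20.4% occur in H2-DMb2.

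Cd74, the invariant chain that guides class II molecules to the loading compartment, had the smallest averaged difference. The lowest, median and highest levels were 37.8, 80.2 and 224 CPM in Female KO, against 75.0, 79.3, 99.1, 96.4 and 109 CPM in the Female WT libraries. For males the levels were 52.0, 80.3 and 224 CPM in Male KO, against 55.9, 71.2 and 87.7 CPM in Male WT. The Female KO libraries lay on both sides of the whole Female WT range. The log2 fold change was 0.29 ± 0.23 (SE) averaged over the sexes with an adjusted p of 0.554, and -0.16 without the 2 class II-rich libraries.

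H2-Aa, the alpha chain of the I-A molecule, shows the same pattern and was chosen after its values were seen. It had 79.7 CPM in Female KO replicate 1 and 14.5 to 30.8 CPM in the other Female KO libraries, against 20.1 to 27.6 CPM in Female WT. It had 83.6 CPM in Male KO replicate 6 and 17.7 to 30.3 CPM in the other Male KO libraries, against 18.4 to 21.8 CPM in Male WT. The averaged log2 fold change was 0.67 ± 0.24 (SE) with an adjusted p of 0.178, and 0.17 without these 2 libraries. The remaining members were H2-Ab1 and H2-Eb1, both beta chains, H2-DMa, the other DM chain, and Ctss, the protease cathepsin S that cuts the invariant chain. Their averaged log2 fold changes lay between 0.30 and 0.61, with adjusted p between 0.204 and 0.585. Without the 2 class II-rich libraries H2-Ab1 had 0.082, H2-Eb1 0.14, H2-DMa -0.029 and Ctss 0.28. The promoter of H2-Aa is shown beside those of the class I genes because it holds the same spaced pair, at chr17:34287774-34288073 on the minus strand of GRCm38.p6. Capitals mark TGACG, here overlapping its reverse complement, then ATTGG 26 bases on, and GGGANTTCC, a strict form of the NF-kappa B motif.
H2-Aa: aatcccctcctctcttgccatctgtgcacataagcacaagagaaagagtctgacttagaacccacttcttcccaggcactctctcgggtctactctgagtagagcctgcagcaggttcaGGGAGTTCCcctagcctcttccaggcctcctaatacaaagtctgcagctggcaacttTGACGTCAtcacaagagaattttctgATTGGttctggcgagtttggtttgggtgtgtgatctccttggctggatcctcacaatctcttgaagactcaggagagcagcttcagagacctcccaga
GGGANTTCC was in 2 of the 25 members with a window and in 1.68% of all windows. Other forms of that motif were not searched, so a window without GGGANTTCC may still hold one.

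**Figure D3:**
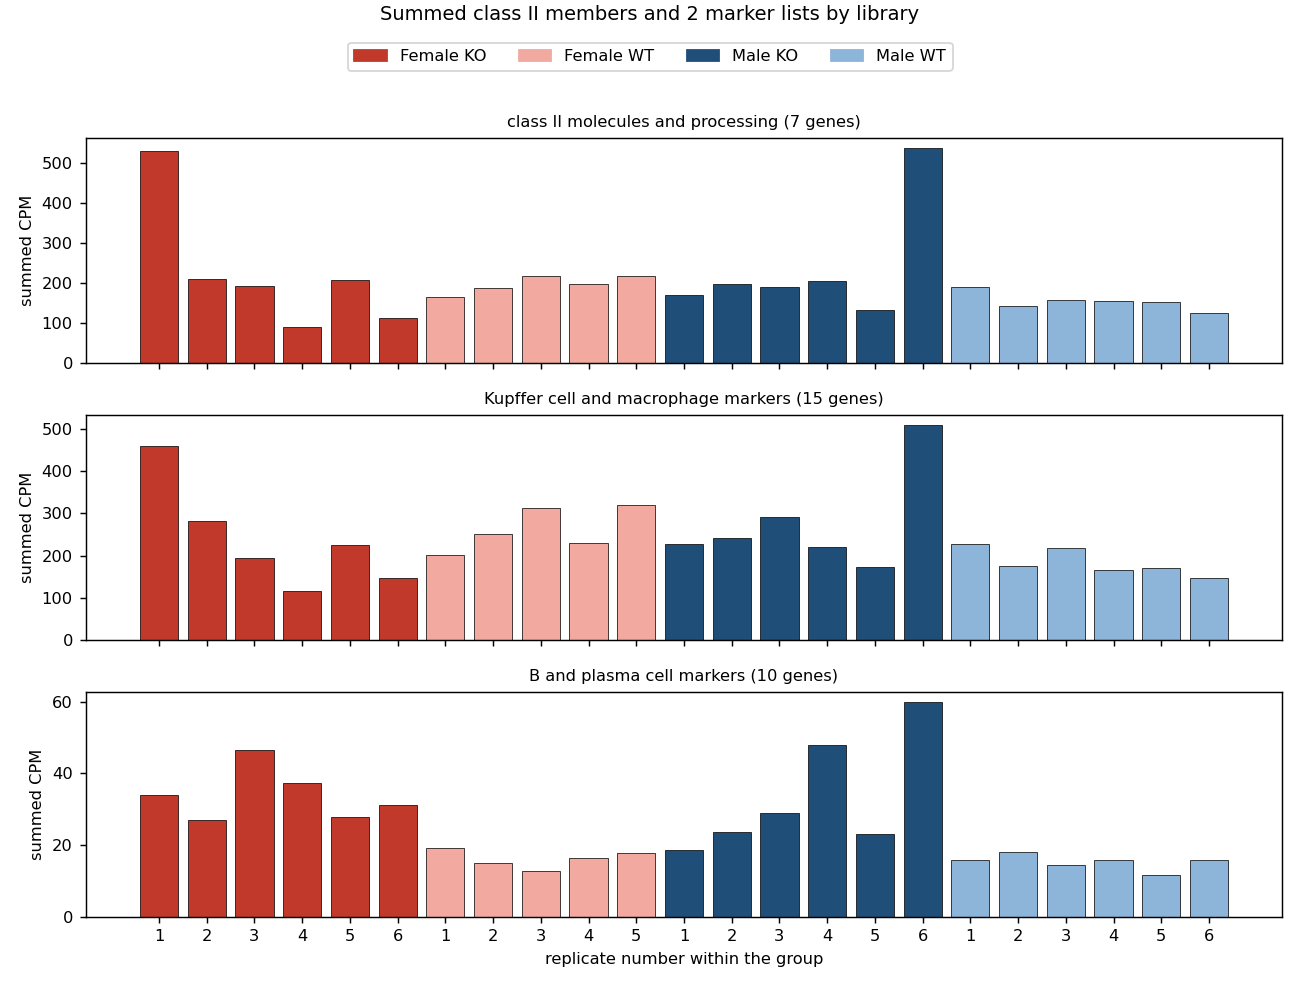
Summed CPM of the 7 class II members, of 15 Kupffer cell and macrophage markers and of 10 B and plasma cell markers in each of the 23 libraries. Female KO replicate 1 and Male KO replicate 6 are highest in the upper and middle panels, at 531 and 537 CPM and at 460 and 509 CPM, and all KO libraries are above all WT libraries of their sex in the lower panel.

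Markers of cells that carry class II were measured in the same libraries. The 15 Kupffer cell and macrophage markers, all detected in every library, summed to 460 CPM in Female KO replicate 1 and 509 CPM in Male KO replicate 6, and to 115 to 319 CPM in the other 21 libraries. By group the sums were 115 to 460 CPM in Female KO and 202 to 319 CPM in Female WT, and 172 to 509 CPM in Male KO and 147 to 228 CPM in Male WT. Their median log2 fold change was -0.18 in females and 0.63 in males over 14 tested markers, with 0 called in either sex. In males all 14 were positive and 8 were higher at an unadjusted p under 0.05, beside 7.92% of all genes. In females 2 of the 14 were positive and 0 reached that p in either direction. The 10 B and plasma cell markers summed to 26.9 to 46.5 CPM in Female KO and 12.9 to 19.3 CPM in Female WT, and to 18.7 to 59.8 CPM in Male KO and 11.6 to 18.1 CPM in Male WT. Most of that sum was Igkc, the kappa light chain of antibodies, which rose in KO by an averaged log2 fold change of 1.34 ± 0.21 (SE) with an adjusted p of 0.000664. The B cell marker Ms4a1 reached at most 1.86 CPM in any library. Dendritic cell markers summed to 1.29 to 8.51 CPM, led by Zbtb46 at a median of 3.72 CPM over all libraries and with Cd209a at 0 in every one, and T and NK cell markers to 3.35 to 9.15 CPM. The 14 sinusoidal endothelium markers summed to 104 to 386 CPM in Female KO and 347 to 391 CPM in Female WT, and to 180 to 386 CPM in Male KO and 265 to 329 CPM in Male WT. The median log2 fold change of these 14 markers was -0.50 in females and 0.08 in males, with 0 called in either sex. In females 8 of the 14 were lower at an unadjusted p under 0.05, beside 488 of all 11370 tested genes. The part of these cell types in the class I and class II values was not tested.

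Of the transactivators, neither was called. Ciita, the master regulator of class II genes, had lowest, median and highest levels of 0.445, 1.80 and 3.92 CPM in Female KO, against 2.46, 1.99, 2.44, 1.95 and 1.78 CPM in the Female WT libraries. In males they were 1.18, 2.42 and 4.13 CPM in Male KO, against 0.419, 1.25 and 1.91 CPM in Male WT. The groups overlapped, and the 2 highest KO values were again Female KO replicate 1 and Male KO replicate 6. The averaged log2 fold change was 0.46 ± 0.27 (SE) with an adjusted p of 0.418, and 0.18 without these 2 libraries. It was 1.03 ± 0.39 (SE) in males and -0.12 ± 0.38 (SE) in females, and the interaction was 1.15 ± 0.55 (SE) with an adjusted p of 0.88. Nlrc5, the regulator of class I genes, had 1.70, 2.90 and 4.89 CPM in Female KO, against 3.68, 1.59, 2.90, 2.30 and 3.56 CPM in the Female WT libraries. In males it had 0, 1.59 and 3.17 CPM in Male KO, against 0.682, 1.47 and 2.50 CPM in Male WT. The value of 0 was that of Male KO replicate 3, where a count of 0 allows up to 1.95 CPM. The averaged log2 fold change of Nlrc5 was 0.19 ± 0.26 (SE) with an adjusted p of 0.74. Ciita had 217 and Nlrc5 261 counts over all libraries.

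**Figure D4:**
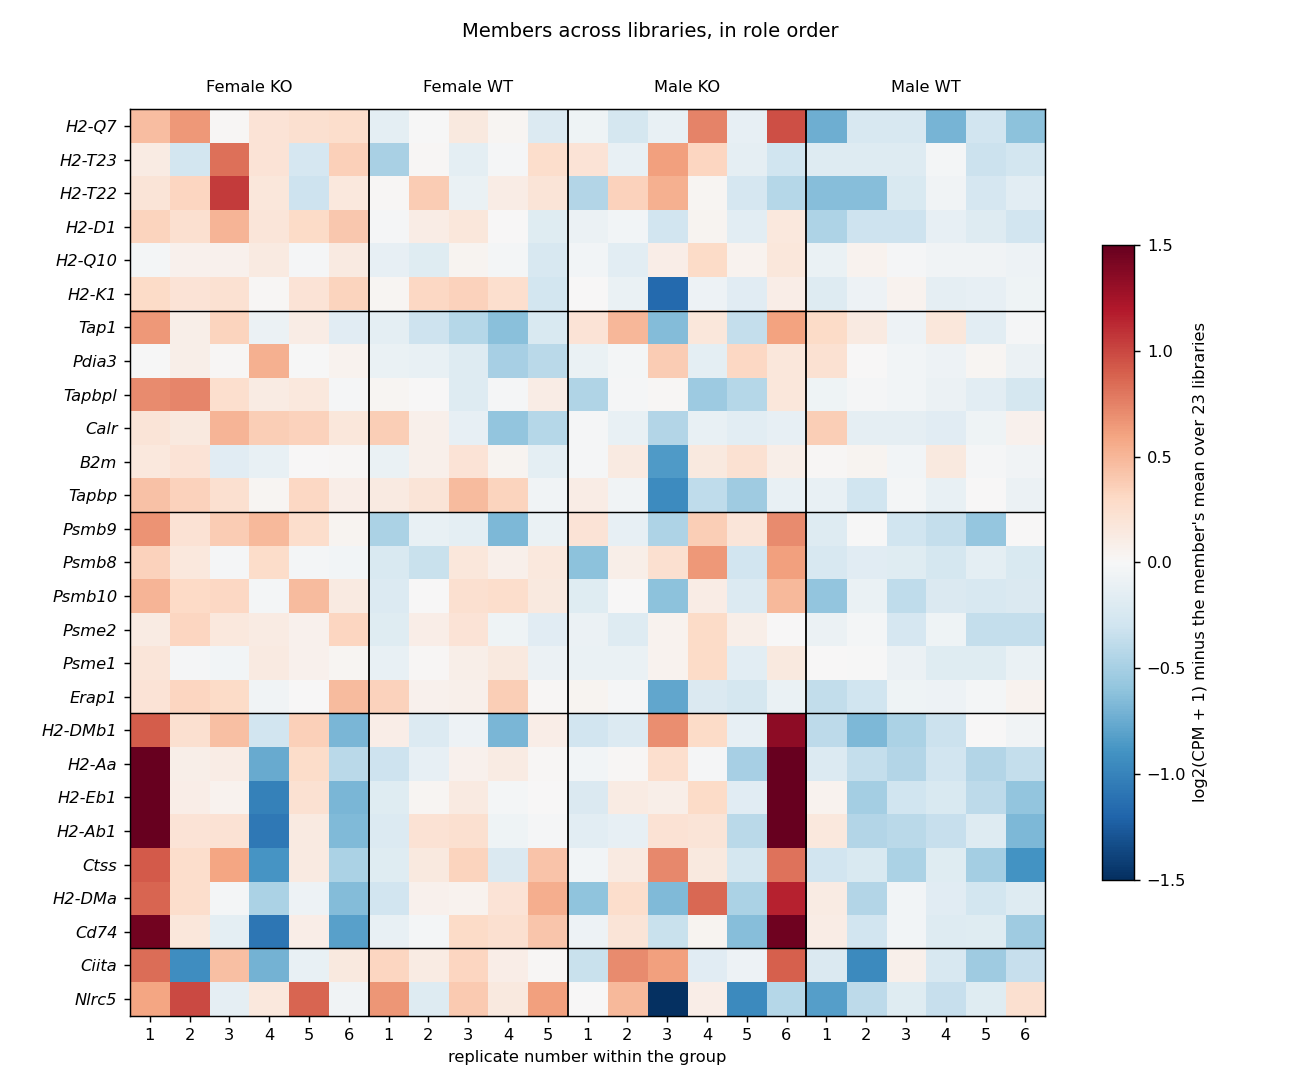
Log2(CPM + 1) of each tested member (rows, in role order) in each of the 23 libraries (columns, by group) minus that member's mean, with colours ending at 1.5 in either direction. Female KO replicate 1 and Male KO replicate 6 are high across the class II rows, and Male KO replicate 3 is low for H2-K1, B2m, Tapbp and Nlrc5.

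Few members differed between the sexes. In KO livers 1 of 27 members was called between males and females (3.70%), beside 7.44% of all genes. This was Tapbp, at 82.6, 135 and 172 CPM (lowest, median and highest) in Male KO and 163, 194 and 217 CPM in Female KO, with a log2 fold change of male over female of -0.39 ± 0.11 (SE) and an adjusted p of 0.028. Of all genes 3.77% were called lower in males. The groups overlapped in 1 male library at 172 CPM. The call was lost without Female KO replicate 1 or 5 or Male KO replicate 3, 4 or 5, with adjusted p between 0.0599 and 0.0688. In KO livers 5 members had an unadjusted p under 0.05, all lower in males, beside 11.5% of all genes that were lower at that p. H2-D1 and Calr lay lower in every Male KO library than in every Female KO library, as did 2.48% of all genes. In WT livers 0 members were called by edgeR, beside 5.61% of all genes, and 1 was called by DESeq2. An unadjusted p under 0.05 was reached by 4 members there, 2 higher and 2 lower in males, beside 7.33% of all genes that were higher and 9.86% that were lower. Without overlap, Pdia3 was higher and H2-Q7 lower in Male WT than in Female WT, as were 2.23% and 5.5% of all genes. Tap1 came nearest, with a log2 fold change of male over female in WT of 0.53 ± 0.17 (SE) and an adjusted p of 0.0615. No member had a called interaction of sex and genotype by edgeR, DESeq2 or limma-voom, where edgeR called 0% of all genes, and 3 members had an unadjusted p under 0.05. These were Ctss and Ciita with positive values and Calr with a negative one, beside 3.47% of all genes that were positive and 2.18% that were negative at that p.

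The genes around these routes were compared as wider lists. Other class I genes, 7 tested of 24 listed, had a median averaged log2 fold change of -0.07 and other class II genes, 6 tested of 13, of 0.12, with 0 called in both. Regulators of the MHC and of interferon signalling, 22 tested of 25, had a median of 0.09 with 0 called. Among them Irf1, an interferon-induced transcription factor named after its values were seen, had 0.07 ± 0.14 (SE) with an adjusted p of 0.824. Interferon response genes outside antigen presentation, 37 tested of 44, had a median of 0.35. Of the tested ones 35 were positive (94.6%, beside 55% of all genes) and 2 were called (5.41%, beside 0.431% of all genes). The 2 were Isg15, a ubiquitin-like protein, at 0.81 ± 0.18 (SE) with an adjusted p of 0.0366, and Usp18, the protease that removes it, at 0.73 ± 0.17 (SE) with an adjusted p of 0.0419. Over all genes the median was 0.03. Within females and within males 0 of the 37 were called, with lowest adjusted p of 0.0816 and 0.139. Of all genes 0.193% and 0.132% were called there. Whether the calls of Isg15 and Usp18 hold without single libraries was not tested.

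Within the groups, several pairs of members deviated together. For 12 pairs of genes each library was taken as its deviation from its group mean in log2 CPM, over 23 libraries, and p-values came from 100000 permutations within groups, counting both directions, with adjustment over the 12 pairs. Cd74 and H2-Aa had a Pearson r of 0.938 (adjusted permutation p 0.00016) and a Spearman rho of 0.741 (0.00148), and r was 0.789 without the 2 libraries farthest from the median, the class II-rich ones. H2-Aa and H2-Ab1 had an r of 0.946 (adjusted permutation p 0.00012) and 0.835 without those 2. Cd74 and Ctss had an r of 0.741 (adjusted permutation p 0.00117) and 0.639 without them. Cd74 and Csf1r, the receptor of macrophage colony-stimulating factor and no member, had an r of 0.878 and a rho of 0.81 (adjusted permutation p 0.00012 and 0.0006), and an r of 0.804 without those 2. The raw p of 1e-05 for that r is the smallest these permutations can give.

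H2-K1 and B2m, the chains of 1 molecule, had an r of 0.793 (adjusted permutation p 0.0115) and a rho of 0.635 (0.0109). The r was 0.51 without the 2 libraries farthest from the median, of which Male KO replicate 3 was low in both genes. Without Male KO replicate 3 alone it was 0.459 with an adjusted permutation p of 0.0707, above the threshold. H2-K1 and H2-D1 had an r of 0.509 (adjusted permutation p 0.0991) and a rho of 0.606 (0.0123). Psmb9 and Tap1, which share the window shown above, had an r of 0.591 (adjusted permutation p 0.0317) and a rho of 0.458 (0.0896), and 0.332 without Male KO replicates 6 and 3. The relation was thus weaker without those libraries. They were picked as the farthest from the median of Psmb9, and leaving out such libraries can by itself lower r. Without Male KO replicate 3 alone r was 0.487 with an adjusted permutation p of 0.0707, above the threshold. Of the remaining pairs, Psmb8 with Psmb9, Nlrc5 with H2-K1, H2-K1 with Cd74 and Irf1 with Psmb9 had r between 0.143 and 0.43 and adjusted permutation p between 0.21 and 0.528.

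**Figure D5:**
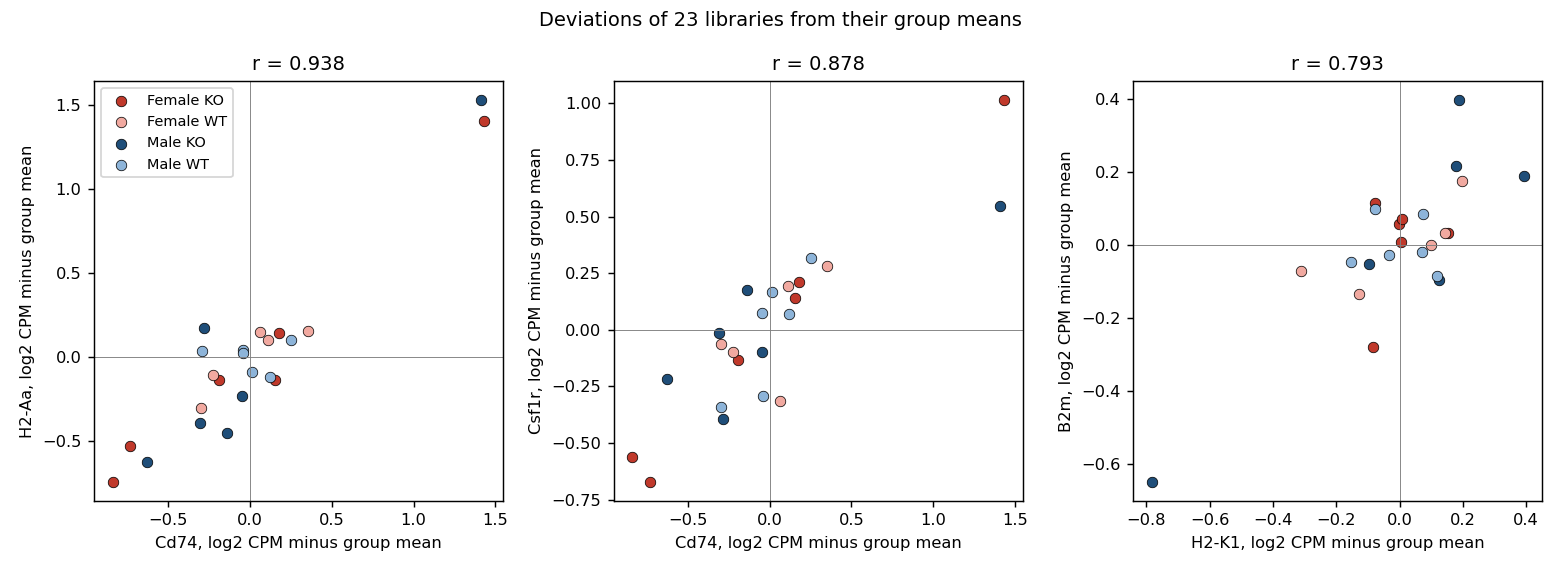
Deviation of each of the 23 libraries from its group mean in log2 CPM, for Cd74 against H2-Aa, Cd74 against Csf1r and H2-K1 against B2m, coloured by group. The r values are 0.938, 0.878 and 0.793, with the class II-rich libraries at the upper right of the left and middle panels and Male KO replicate 3 at the lower left of the right panel.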

How the data were processed

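RNA of 23 liver libraries was measured by 3′ end counting. The deposited expected counts, which need not be whole, and the deposited CPM were used as given. The submitters' processing notes name STAR 2.7.11 and fastp 0.24.0, featureCounts with Subread 2.1.1, and the build mm39, without roles or settings. The table has 65535 gene rows, a number at a spreadsheet limit, so further rows may be missing from it, and shares of all genes refer to the rows used. Counts were rounded to whole numbers, filtered with filterByExpr (minimum count 10) and fitted in edgeR 4.0.16 (R 4.3.3) with TMM scaling and the quasi-likelihood test, all 4 groups in 1 fit, with Benjamini-Hochberg adjustment over 11370 genes and 6 contrasts. The procedure was tested on simulated data. Alternatives used DESeq2 1.42.0 and limma 3.58.1. Of 55 within-group pairs of libraries, none agreed within sampling noise (lowest chi-square per degree of freedom 3.04). Nothing in the labels used says more of how the mice were related, so p-values measure the spread between these libraries. Levels are CPM, not adjusted for length, so genes are not compared with each other. Full values are given for called members and for the members with the largest and smallest averaged difference in each role; others named were chosen after their values were seen. The members and lists were chosen with earlier results of these data known. Promoters are RefSeq windows on GRCm38.p6, not the mm39 of the counts; shared 3′ windows come from GENCODE transcripts. Floors cover counting error only, while intervals taken from the SE include the spread between libraries. One of the 12 gene pairs and some single marker values are not reported here.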

Additional observations from a re-analysis of the deposited data

Results flagged for a closer look

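In 14 of 108 groups of values (27 members in 4 groups) 1 library stood apart from the others of its group by Dixon's test, and chance gives about 1 in 20. The flags fell in 6 libraries. Female KO replicate 1 was high for H2-Aa (79.7 CPM), H2-Ab1 (105 CPM), H2-Eb1 (88.0 CPM) and Cd74 (224 CPM). Male KO replicate 6 was high for the same 4 genes, with H2-Aa at 83.6 CPM, H2-Ab1 at 115 CPM, H2-Eb1 at 78.5 CPM and Cd74 at 224 CPM. Macrophage markers were also highest in these 2 libraries, and their part in the class II values was not tested. Male KO replicate 3 was low for H2-K1 at 417 CPM, where the others had 838 to 1007 CPM, for B2m at 374 CPM, where the others had 665 to 792 CPM, and for Calr at 369 CPM, where the others had 449 to 494 CPM. It was also the shallowest library. H2-T22 was high at 10.6 CPM in Female KO replicate 3. Pdia3 was high at 275 CPM in Female KO replicate 4 and at 222 CPM in Male WT replicate 1.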

How the results depend on the processing

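The number of members called for KO against WT averaged over the sexes, 2 in the fit reported, was 4 with no filter on low counts, 4 with DESeq2, 8 with limma-voom and sample weights, 1 with near copies summed, where H2-D1 is part of a sum with H2-K1, and 0 without both class II-rich libraries (an alternative chosen after seeing the data); leaving out 1 library gave 0 to 4. In males it was 5 with no filter, 1 with DESeq2 and 8 with sample weights, beside 0.51%, 0.413% and 6.02% of all genes, and 0 to 1 with 1 library left out. In females and for the interaction it was 0 to 0 with 1 library left out. Between the sexes in KO, 1 in the fit reported, it was 0 with no filter, 2 with sample weights and 0 with only the groups compared, beside 3.24%, 18.4% and 3.82% of all genes, and 0 to 2 with 1 library left out. In WT it was 1 with DESeq2, 2 with sample weights, 2 with only the groups compared and 1 without both class II-rich libraries, beside 6.32%, 11%, 10.2% and 5.48% of all genes. With near copies summed it was 1, the sum of 10 H2-T genes and no single member, and it was 0 to 1 with 1 library left out. With the replicate block the averaged count was 1, and Psmb9 had an adjusted p of 0.0678. Deviations of same-numbered libraries correlated between -0.36 and 0.30, and 10 of 22 pairs exceeded 0.1. Libraries of different numbers were not compared in this way, so whether replicate numbers pair the libraries was not tested. Over all genes the averaged calls numbered 49 in the fit reported, 244 with no filter, 191 with DESeq2, 628 with sample weights and 28 without both class II-rich libraries. DESeq2 and the fit with sample weights used the same 11370 genes as the fit reported. With no filter more genes were tested, among them all 32 members. For near copies summed, the replicate block and 1 library left out, averaged calls over all genes are not given here. The median of the members moved by more than its SD between libraries of a group in 1 of 208 alternatives. That was male against female in KO without Male KO replicate 6, at -0.16 against 0.12 in the fit reported. Most alternatives share all but 1 library with that fit and can hardly move the median so far, so the count is no test of stability. The causes were not tested.

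Signs turned for several members, among them class II members with sizeable values in the fit reported, in females 0.43 for H2-Aa, 0.36 for H2-Eb1 and 0.26 for H2-Ab1. In females Cd74 had -0.0075 with no filter, -0.13 with the replicate block, -0.18 with limma-voom, -0.016 with sample weights and -0.43 without both class II-rich libraries, where H2-Aa had -0.023, H2-Ab1 -0.17, H2-Eb1 -0.16 and Ctss -0.10; averaged over the sexes H2-DMa then had -0.029 and Cd74 -0.16. In males H2-K1 had 0.0054 with upper-quartile scaling and 0.056 with sample weights, Nlrc5 -0.038 with sample weights, and Erap1 -0.045 with no filter, -0.0058 with the stricter filter and -0.022 without both class II-rich libraries. With 1 library left out, the ranges in females were -0.022 to 0.56 for H2-Aa, -0.17 to 0.42 for H2-Ab1, -0.16 to 0.51 for H2-Eb1, -0.43 to 0.16 for Cd74, -0.10 to 0.23 for Ctss, -0.42 to 0.089 for Ciita and -0.40 to 0.092 for H2-DMa. In males they were -0.19 to 0.023 for Tapbpl, -0.042 to 0.055 for Erap1, -0.10 to 0.10 for H2-K1, -0.074 to 0.41 for Nlrc5, -0.027 to 0.16 for B2m and -0.11 to 0.0035 for Calr, and averaged over the sexes -0.063 to 0.0082 for Tapbp. Among pairs, r of H2-K1 with H2-D1 was 0.678 on deposited CPM and 0.672 without Male KO replicate 3, and without that library r was 0.459 for H2-K1 with B2m, 0.487 for Psmb9 with Tap1 and -0.29 for Nlrc5 with H2-K1. Without both class II-rich libraries r was 0.397 for Psmb9 with Tap1 and -0.224 for H2-K1 with Cd74.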
